A study of Homo sapiens with 6 samples.

Results

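Small interferon-induced genes were followed in MDA-MB-453 cells after *DUSP6* knockdown. The group holds 10 of the 22807 genes in the table, namely *IFI6*, *IFI27*, *IFI44*, *IFI44L*, *IFI35*, *IFI16*, *IFI30*, *EPSTI1*, *CMPK2* and *XAF1*, and each was matched by its symbol. These genes were selected on their values in the same comparison that is described here, *DUSP6* siRNA against scrambled siRNA, and on their names. Their fold changes are therefore a description and were not tested. MDA-MB-453 is an established HER2+ breast cancer cell line, and *DUSP6* encodes a phosphatase that acts on ERK. RNA was sequenced in 6 libraries, 3 from cells transfected with *DUSP6* siRNA and 3 from cells transfected with scrambled siRNA. All cells shared one medium, and the labels give no other genetic change. According to the study, each group was made with different siRNA sequences, but the sources used here do not tie a siRNA to a library. Libraries with one label were handled as replicates. Nothing in the labels says that they came from separate cultures. The p-values thus measure only the spread between these libraries, which may be technical and may include differences between siRNA sequences.

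Interferons are secreted proteins that cells release on sensing viral nucleic acid. Type I and type III interferons bind receptors whose kinases, JAK1 and TYK2, activate transcription factors, and a complex that contains IRF9 then binds the interferon-stimulated response element (ISRE) in promoters. The gamma-activated site (GAS) is a second promoter element, used mostly after interferon-gamma. Genes named IFI were found as interferon-induced transcripts and encode proteins of different families, and breast cancer cells of epithelial origin can make and answer interferons as other cells do.

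The promoters of 6 members are shown, the 5 that hold the ISRE core and *IFI30*, which has no match even with 1 mismatch allowed. The promoters of *IFI35*, *IFI16*, *CMPK2* and *XAF1* also lack the core and are not shown, and these genes were higher after *DUSP6* siRNA. The letters searched were GAAANNGAAA for the ISRE core, TTCNNNGAA for the GAS core and TATAAA for the TATA box, on both strands, in a window from 250 bases before to 50 bases after each RefSeq start. The sequences are the 250 bases before the first listed start, 5′ to 3′ on the strand of the gene, from RefSeq on GRCh38.p14. They lie at chr1:27672193-27672442 on the minus strand for *IFI6*, chr14:94110486-94110735 on the plus strand for *IFI27*, chr1:78649539-78649788 on the plus strand for *IFI44*, chr1:78620198-78620447 on the plus strand for *IFI44L*, chr13:42992242-42992491 on the minus strand for *EPSTI1* and chr19:18173563-18173812 on the plus strand for *IFI30*. Capitals mark each match to the ISRE core on either strand.
IFI6: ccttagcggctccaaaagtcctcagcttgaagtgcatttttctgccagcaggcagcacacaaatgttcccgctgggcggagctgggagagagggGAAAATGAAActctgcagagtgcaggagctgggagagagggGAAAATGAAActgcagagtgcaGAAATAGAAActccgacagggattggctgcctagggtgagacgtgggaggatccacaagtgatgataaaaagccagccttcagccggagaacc
IFI27: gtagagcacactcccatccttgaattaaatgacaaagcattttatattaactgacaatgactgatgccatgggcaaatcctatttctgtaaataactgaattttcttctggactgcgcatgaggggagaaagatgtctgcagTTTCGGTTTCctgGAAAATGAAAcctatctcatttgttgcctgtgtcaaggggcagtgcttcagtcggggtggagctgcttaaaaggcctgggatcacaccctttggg
IFI44: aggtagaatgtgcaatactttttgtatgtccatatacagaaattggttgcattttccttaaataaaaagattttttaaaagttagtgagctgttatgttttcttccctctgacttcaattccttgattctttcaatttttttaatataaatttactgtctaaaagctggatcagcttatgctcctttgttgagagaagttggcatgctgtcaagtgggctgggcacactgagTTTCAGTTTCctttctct
IFI44L: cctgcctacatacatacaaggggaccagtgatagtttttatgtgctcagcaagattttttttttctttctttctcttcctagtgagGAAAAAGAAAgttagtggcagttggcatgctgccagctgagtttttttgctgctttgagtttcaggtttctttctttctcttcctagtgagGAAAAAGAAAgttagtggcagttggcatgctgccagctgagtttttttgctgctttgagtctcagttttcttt
EPSTI1: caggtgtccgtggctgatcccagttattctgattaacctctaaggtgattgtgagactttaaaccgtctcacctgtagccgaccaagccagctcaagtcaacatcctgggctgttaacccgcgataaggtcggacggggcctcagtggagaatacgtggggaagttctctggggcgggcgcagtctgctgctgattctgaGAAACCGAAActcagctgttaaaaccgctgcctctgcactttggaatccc
IFI30: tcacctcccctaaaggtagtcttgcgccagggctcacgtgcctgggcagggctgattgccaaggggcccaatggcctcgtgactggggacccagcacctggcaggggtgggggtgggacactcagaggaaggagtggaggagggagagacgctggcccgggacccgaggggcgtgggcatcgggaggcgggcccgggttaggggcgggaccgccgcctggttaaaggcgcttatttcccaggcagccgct

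The ISRE core was found at some listed start in 5 of the 10 members, against 4.38% of the 27305 genes in the RefSeq promoter table counted in the same way. *IFI6* held 3 cores, *IFI27* and *IFI44L* held 2 each around their first listed starts, and *IFI44* and *EPSTI1* held 1 each. The GAS core was found in *IFI27*, *IFI35* and *EPSTI1*, against 9.38% of all genes in that table. In *IFI27* the GAS match overlaps both ISRE cores, and in *EPSTI1* it overlaps the single core. The TATA letters were found in *IFI27*, *IFI44* and, at its second listed start, *IFI16*, against 13.99% of those genes. With 1 mismatch allowed in the fixed letters, 9 members had a match to the ISRE core, all but *IFI30*, and 37.7% of those genes had one. A match is a run of letters and not evidence of binding. The map of motif matches shows that the ISRE cores lie in the part of the window before the start.

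**Figure D1:**
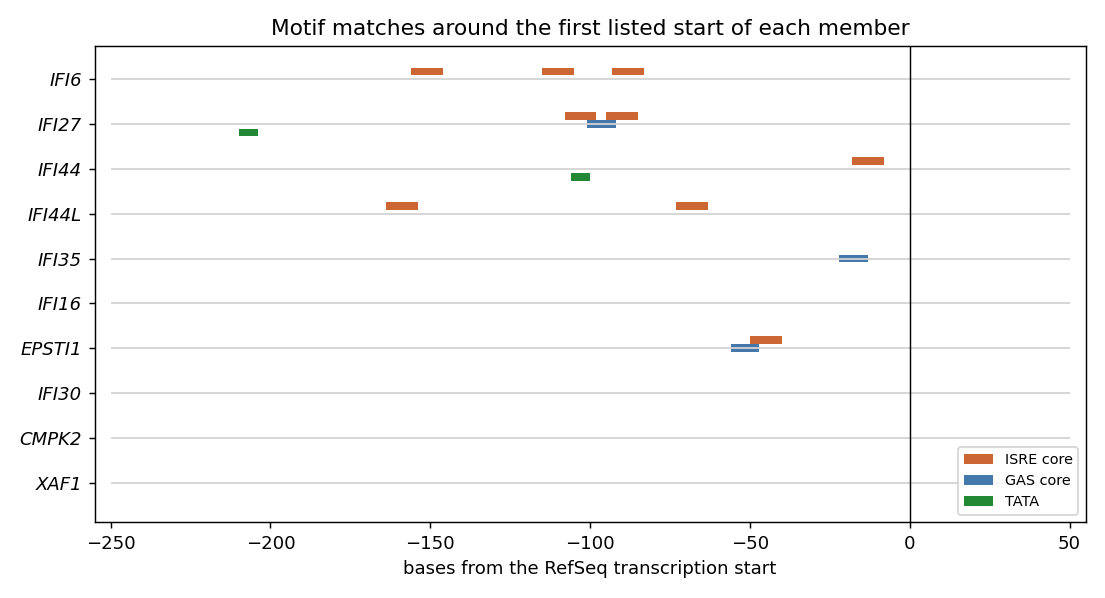
Matches to the ISRE, GAS and TATA letters on either strand, drawn by distance in bases from the first listed RefSeq start of each member, with 1 line per gene. *IFI6* holds 3 ISRE cores, and *IFI16*, *IFI30*, *CMPK2* and *XAF1* hold no match in these windows.

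*DUSP6* itself had normalized values of 209, 110 and 114 in the scrambled siRNA libraries, in the order of replicates 1 to 3 that is kept throughout, against 39.4, 24.5 and 35.2 in the *DUSP6* siRNA libraries. The groups did not overlap, and the log2 fold change was −2.05 (SE 0.25, limma adjusted p = 0.000309). The normalized value is the number of reads on a gene relative to the scaled library size, and fold changes are differences of log2(value + 1) unless stated otherwise, which makes the changes of genes with low values smaller. Libraries held between 45546981 and 85729785 reads on genes, and 1 read was worth a value between 0.0121 and 0.0202. Luminal HER2+ markers were high in every library, summing to 3353 to 4391 with scrambled siRNA and 2686 to 2855 with *DUSP6* siRNA. Of 10 immune cell markers 7 had a row, and no single one exceeded a value of 0.367. Their sums were 0.460 to 0.521 with scrambled siRNA and 0.695 to 0.917 with *DUSP6* siRNA. Of 5 stromal markers, *COL1A1*, named after its values were seen, ranged from 80.7 to 105 with scrambled siRNA and from 162 to 192 with *DUSP6* siRNA, and the others stayed at or under 0.268. The part of these markers in the results was not tested. In bulk RNA, more cells that express a gene and more RNA per cell cannot be told apart.

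Of the 10 members, 8 had their lowest knockdown library above their highest control library, against 21.6% of all genes in the table. One of the 10, *IFI30*, was lower without overlap, against 20.7% of all genes, and *EPSTI1* overlapped between the groups. Because the members were picked on this contrast, nothing is read from these shares. The median log2 fold change of the 10 members was 3.54, and the median over all genes that averaged at least 1 across the libraries was −0.01. Only 7 of the 10 reached that minimum mean, and 4 of these 7 had a mean under 1 with scrambled siRNA. The plot of members by library shows 6 genes with large differences, *IFI35* and *IFI16* at low levels in both groups, and *IFI30* on its own at a high level in both groups.

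**Figure D2:**
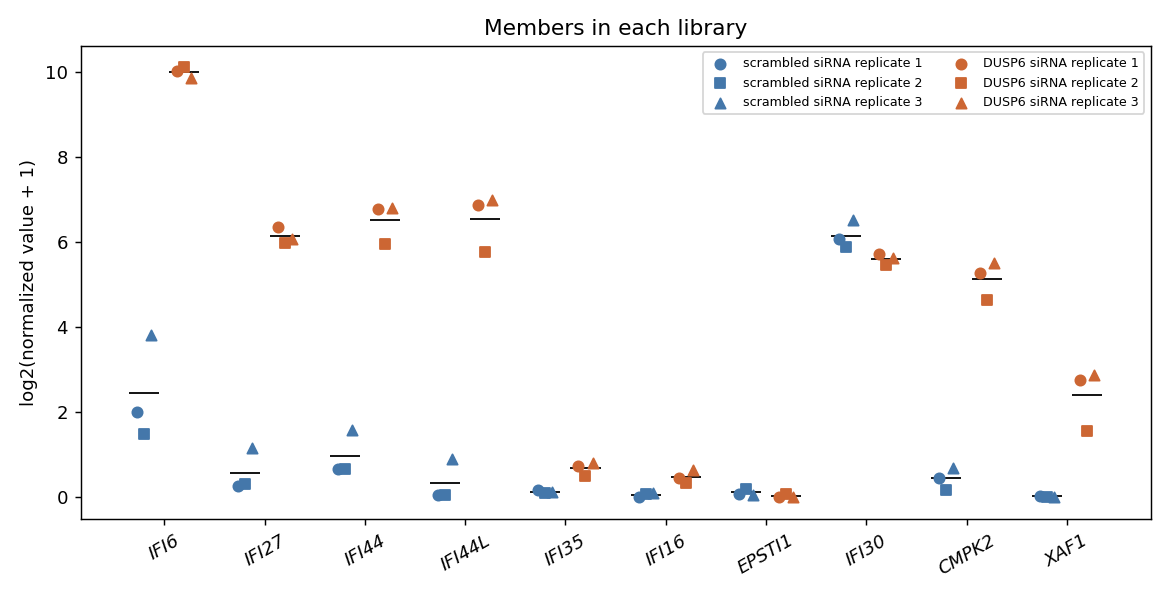
Values of the 10 members as log2(normalized value + 1) in each of the 6 libraries, with blue for scrambled siRNA, orange for *DUSP6* siRNA, a marker shape per replicate and a black line at each group's mean of 3. *IFI6* lies near the top with *DUSP6* siRNA, and *EPSTI1* lies near 0 in both groups.

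*IFI6* and *IFI27* encode small hydrophobic proteins of the ISG12 family that are found at mitochondria and other membranes. *IFI6* (Entrez gene 2537, chromosome 1 of GRCh38 from 27666064 to 27672192, minus strand) had values of 3.03, 1.82 and 13.1 with scrambled siRNA and of 1046, 1106 and 937 with *DUSP6* siRNA. All 3 *DUSP6* siRNA libraries lay far above the highest scrambled siRNA library, and scrambled siRNA replicate 3 stood above the other scrambled libraries. The control mean was 6.00 ± 6.21 (SD, n = 3) and the knockdown mean 1030 ± 85.6 (SD, n = 3). The log2 fold change was 7.56 (SE 0.71). In GENCODE v44, exons of *LINC02574* on the same strand cover 23.1% of the exon bases of *IFI6*, so reads there cannot be assigned with certainty. *LINC02574* was not analysed here.

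*IFI27* (Entrez gene 3429, chromosome 14 from 94105894 to 94116690) had values of 0.193, 0.249 and 1.23 with scrambled siRNA and of 81.6, 62.3 and 66.8 with *DUSP6* siRNA. The lowest *DUSP6* siRNA library was 50.7 times the highest scrambled siRNA library. The log2 fold change was 5.57 (SE 0.31). Its relatives *IFI27L1* and *IFI27L2*, which belong to the same family, were not members, but stand on a list that was written with earlier results of these data known. *IFI27L1* rose from a mean of 7.68 to 13.8 (log2 fold change 0.77, SE 0.10, limma adjusted p = 0.00037), where 19.7% of the 12862 genes tested were called higher and 24.7% lower. *IFI27L2* rose from 8.06 to 15.6 (log2 fold change 0.88, SE 0.18, limma adjusted p = 0.00393).

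*IFI44L* and *IFI44* are neighbors on the plus strand of chromosome 1, with 3643 bases from the end of *IFI44L* to the start of *IFI44*, and both encode proteins with antiviral activity. *IFI44* (from 78649789 to 78664078) had values of 0.580, 0.575 and 1.99 with scrambled siRNA and of 108, 61.6 and 111 with *DUSP6* siRNA. *IFI44L* (from 78620448 to 78646145) had values of 0.0446, 0.0383 and 0.868 with scrambled siRNA and of 117, 54.0 and 126 with *DUSP6* siRNA. In both genes scrambled siRNA replicate 3 was the highest control and *DUSP6* siRNA replicate 2 the lowest knockdown library, and the groups were far apart. The log2 fold change was 5.55 (SE 0.41) for *IFI44* and 6.21 (SE 0.48) for *IFI44L*. In scrambled siRNA replicates 1 and 2 *IFI44L* rested on 3 and 2 reads, against 72 reads in replicate 3.

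*CMPK2* encodes a mitochondrial nucleoside monophosphate kinase and lies beside *RSAD2*, the gene of the antiviral enzyme viperin. *CMPK2* (chromosome 2 from 6840553 to 6866635, minus strand) had values of 0.372, 0.134 and 0.615 with scrambled siRNA and of 38.0, 24.0 and 44.6 with *DUSP6* siRNA. The groups did not overlap, and the log2 fold change was 4.70 (SE 0.30). Exons of *RSAD2* on the opposite strand cover 8.0% of its exon bases, and the counting settings as stated take no strand, so reads there cannot be told apart. *RSAD2* had values of 2.98, 2.41 and 4.39 with scrambled siRNA and of 297, 204 and 348 with *DUSP6* siRNA (log2 fold change 6.05, SE 0.22, limma adjusted p = 4.27e-07).

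*XAF1* encodes a factor that binds XIAP, an inhibitor of caspases. *XAF1* (chromosome 17 from 6755447 to 6775647) had values of 0.0298, 0 and 0.0121 with scrambled siRNA and of 5.76, 1.97 and 6.40 with *DUSP6* siRNA. The scrambled siRNA libraries held 3 reads on it in all and the *DUSP6* siRNA libraries 860, a depth-adjusted ratio of 296 with an exact 95% counting interval of 101 to 1439. This interval sums libraries, covers counting error only and tests nothing, as the members were picked on this contrast. The log2 fold change was 2.38 (SE 0.42) after adding 1 to the values, and 38.3% of its exon bases are covered on the opposite strand by *PRAL* in GENCODE v44.

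*IFI35* and *IFI16* were low in both groups. *IFI35*, whose product forms a complex with NMI, had values of 0.134, 0.0766 and 0.0844 with scrambled siRNA and of 0.667, 0.416 and 0.742 with *DUSP6* siRNA. *IFI16*, a nuclear and cytosolic DNA sensor, had values of 0, 0.0575 and 0.0723 with scrambled siRNA and of 0.364, 0.257 and 0.556 with *DUSP6* siRNA. The groups did not overlap in either gene, but both stayed under a value of 1 in every library. *IFI35* had 20 reads against 115, a ratio of 5.94 (exact 95% counting interval 3.67 to 10.1), and *IFI16* had 9 against 75, a ratio of 8.61 (4.30 to 19.6). Both intervals sum libraries and cover counting error only, and for members picked on this contrast they test nothing. *NMI* rose from a mean of 6.96 to 19.98 (log2 fold change 1.43, SE 0.23, limma adjusted p = 0.00129).

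*EPSTI1*, a gene induced by interferon in many epithelial and blood cells, was close to the limit of the reads. Its values were 0.0595, 0.153 and 0.0362 with scrambled siRNA and 0, 0.0611 and 0 with *DUSP6* siRNA. The groups overlapped, with 15 reads against 5 (ratio 0.344, exact 95% counting interval 0.0979 to 0.996), which sums libraries and covers counting error only. Its log2 fold change was −0.08 (SE 0.06). Of the 5 members that hold the ISRE core, *EPSTI1* was the one without higher values after *DUSP6* siRNA. Of the members without the core, *IFI35*, *IFI16*, *CMPK2* and *XAF1* were higher and *IFI30* was lower. Whether the core bears on the rise was not tested.

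*IFI30* encodes a lysosomal thiol reductase that unfolds proteins for antigen presentation and is best known as a target of interferon-gamma. *IFI30* (chromosome 19 from 18173813 to 18178117) had values of 66.5, 58.1 and 90.3 with scrambled siRNA and of 51.7, 43.3 and 48.1 with *DUSP6* siRNA. Every *DUSP6* siRNA library was below every scrambled siRNA library, and scrambled siRNA replicate 3 was the highest. The log2 fold change was −0.56 (SE 0.20), and without scrambled siRNA replicate 3 it was −0.38. Exons of a readthrough gene with its upstream neighbor cover 42.5% of its exon bases. That neighbor, *PIK3R2*, was looked up after the values were seen and had values of 227, 242 and 244 with scrambled siRNA and of 190, 221 and 182 with *DUSP6* siRNA.

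Fold changes of the genes with low values depend on the scale. With 0.1 in place of 1 as the added value, the log2 fold change was 8.43 for *IFI44L* and 5.24 for *XAF1*, and the edgeR fit to the recovered reads gave 8.08 and 8.13. For *IFI35* and *IFI16* the edgeR values were 2.58 and 3.09, against 0.54 and 0.41 on the main scale. The direction was the same for all 10 members under every alternative tried. Leaving out 1 library or fitting the replicate number could not have changed it.

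**Figure D3:**
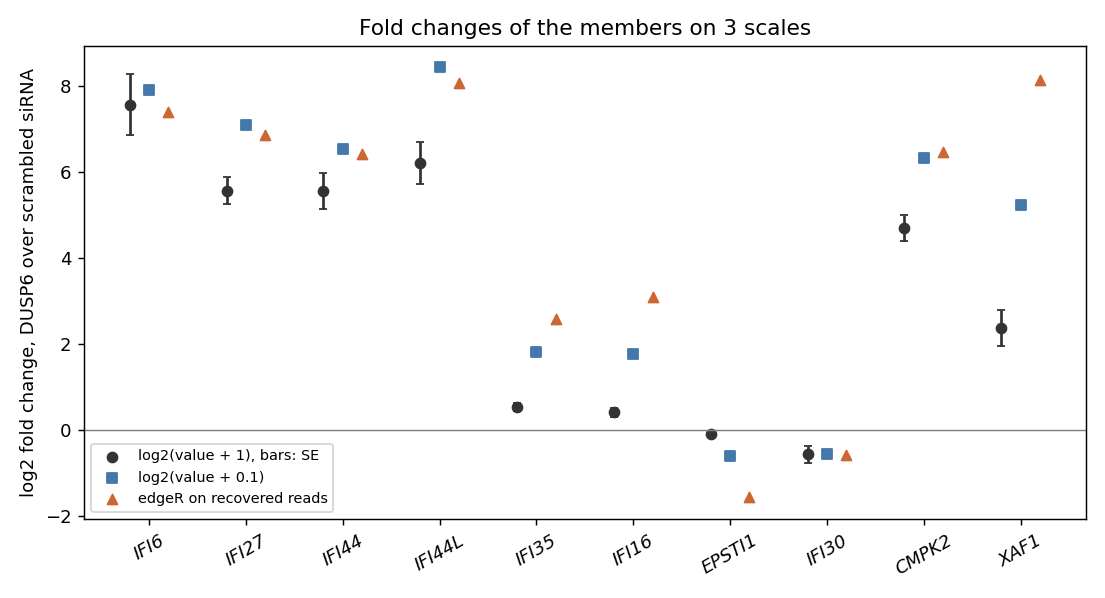
Log2 fold changes of the 10 members, *DUSP6* siRNA over scrambled siRNA, from log2(value + 1) with bars for the SE of 3 libraries a group, from log2(value + 0.1) and from edgeR on the recovered reads. *IFI30* lies at nearly the same place on all 3 scales, and *XAF1* runs from 2.38 to 8.13.

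Per kilobase of the canonical GENCODE v44 transcript, levels differed widely among members. With *DUSP6* siRNA the mean normalized value per kilobase was 1268 for *IFI6*, 96.9 for *IFI27*, 55.8 for *IFI44* and 48.3 for *IFI30*. The next levels per kilobase were 16.96 for *IFI44L* and 11.5 for *CMPK2*. The libraries of *IFI44* overlapped those of *IFI30*, those of *IFI44L* overlapped those of *CMPK2*, and those of *XAF1* overlapped those of *IFI35*. *XAF1* (1.38), *IFI35* (0.515), *IFI16* (0.136) and *EPSTI1* (0.00656) followed in level per kilobase. With scrambled siRNA, *IFI30* was the highest member at 72.5 per kilobase and *IFI6* followed at 7.39. Among the 20734 genes with a length, *IFI6* took place 4 in level per kilobase with *DUSP6* siRNA and place 7268 with scrambled siRNA. With all annotated exon bases as the length, a choice made after seeing the data, *IFI27* moved from place 2 to place 4 among the members.

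**Figure D4:**
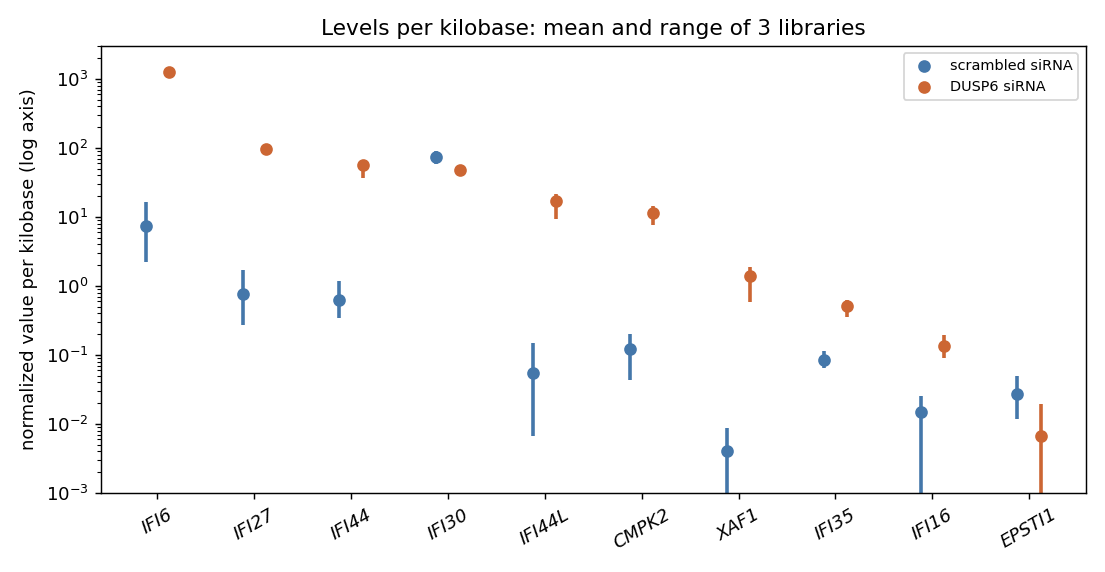
Normalized value per kilobase of canonical transcript on a log axis, with points at the mean and lines over the range of the 3 libraries of each group. Ranges that reach 0 run to the lower edge, and *IFI30* is the member with the highest level under scrambled siRNA.

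Within the groups, most of the higher members had the same library as their lowest or highest. Of the 8 members with higher values, 7 were lowest in *DUSP6* siRNA replicate 2, the exception being *IFI6*, which was highest there. Scrambled siRNA replicate 3 was the highest control for 6 of the 8, the exceptions being *IFI35* and *XAF1*. The ratio of *DUSP6* siRNA replicate 2 to the mean of replicates 1 and 3 ran from 0.324 in *XAF1* and 0.445 in *IFI44L* to 0.840 in *IFI27* and 1.11 in *IFI6*. The median of that ratio over all genes above the minimum was 1.02. *DUSP6* was also lowest in *DUSP6* siRNA replicate 2. The plot of replicate 2 against the other knockdown libraries includes the interferon genes, whose ratios were 0.378 (*IFNB1*), 0.508 (*IFNL1*), 0.504 (*IFNL2*) and 0.561 (*IFNL3*), all below that median.

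**Figure D5:**
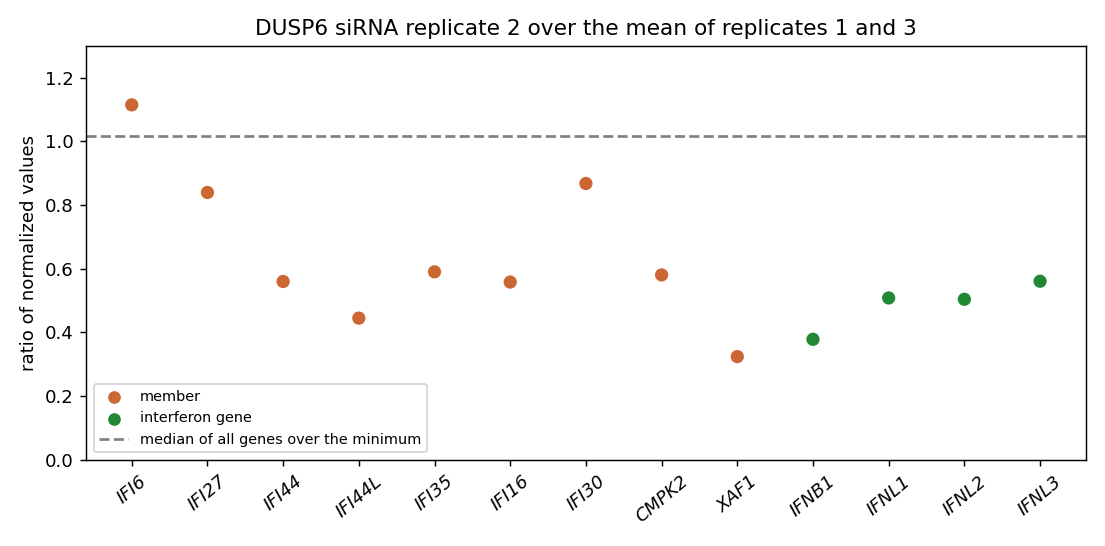
Ratio of the normalized value in *DUSP6* siRNA replicate 2 to the mean of replicates 1 and 3, 1 point per gene, orange for members and green for interferon genes, with the dashed line at the median of all genes above the minimum mean. *EPSTI1* is left out because replicates 1 and 3 are at 0, and *IFI6* is the point above the dashed line.

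The ligands and the rest of the pathway were not members. Reads on *IFNB1*, *IFNL1*, *IFNL2* and *IFNL3* together numbered 5, 2 and 29 in the control libraries and 1709, 1493 and 2477 in the knockdown libraries. The control library with the most interferon reads was thus the one in which most of the higher members were also highest. *IFNB1*, the type I interferon beta, rose to a mean value of 3.31 (log2 fold change 1.97, SE 0.25). *IFNL1*, a type III interferon, rose to 12.9 (log2 fold change 3.66, SE 0.22). The near-identical *IFNL2* and *IFNL3*, between which reads may be divided, rose to 8.71 and 5.49. All 4 had a mean under 1 with scrambled siRNA and reached the minimum mean only through the *DUSP6* siRNA libraries. They had to differ to be tested, so no p-value is given for them. *IFNA1* and *IFNK* held 1 and 2 reads over the 6 libraries, all of them in *DUSP6* siRNA libraries, and were not tested.

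Of 55 interferon pathway genes besides the members, 52 had a row and 45 were tested. The list was written with earlier results of these data known, so its counts are a description and no support is drawn from them. In limma 38 rose, 1 fell and 6 were not called, where 19.7% of all genes tested were called higher and 24.7% lower. The median log2 fold change of the 45 was 2.64 against −0.01 over all genes tested. Of these 45, 9 had a mean under 1 with scrambled siRNA. Without any minimum, 43 of the 52 were higher without overlap, against 21.6% of all genes. All 4 tested ligands, and 4 of the 19 tested effectors, had a mean under 1 with scrambled siRNA and reached the minimum only through the *DUSP6* siRNA libraries, so they had to differ to be tested. The other tested effectors rose too, among them *IFIT1*, which binds foreign RNA caps (log2 fold change 7.19, SE 0.32), and *OASL*, a relative of the oligoadenylate synthetases (6.37, SE 0.19). Of the transcription factors, *STAT2* rose from a mean of 56.1 to 162, *IRF9* from 17.2 to 222, *IRF1* from 7.34 to 38.7 and *IRF7* from 24.4 to 163. *IRF3*, which is activated by phosphorylation, was at 44.5 and 50.1 and was not called (limma adjusted p = 0.258). Among the kinases *JAK2* rose from 11.7 to 27.1 and *TYK2* from 65.7 to 97.2.

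Of 5 tested receptor genes, 1 rose, the type I receptor chain *IFNAR2*, from 1.49 to 2.41 (log2 fold change 0.45, SE 0.13, limma adjusted p = 0.0177). *IL10RB*, the shared chain of the type III receptor, was at 16.1 and 20.7 (limma adjusted p = 0.0754). The feedback and conjugation genes *ISG15* and *USP18* rose by 4.70 and 1.298 on the log2 scale. The RNA sensors *RIGI* and *IFIH1* rose from 30.4 to 635 and from 35.5 to 389. The gene that fell was *MAVS*, their mitochondrial adaptor, named after its value was seen (from 144 to 122, log2 fold change −0.24, SE 0.08, limma adjusted p = 0.0437). This call was lost under the replicate block, quantile normalization, edgeR and DESeq2, and without any one library other than scrambled siRNA replicate 3.

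Of 25 partners and paralogs of the members, 20 were tested, of which 11 rose and 4 fell, where 19.7% of all genes tested were called higher and 24.7% lower. As this list too was written with earlier results known, nothing is read from these shares. Among the 6 tested genes around *XAF1*, 4 rose and 2 fell. *XIAP*, its binding partner, rose from 54.8 to 71.8, and *BIRC2*, another inhibitor of apoptosis, rose from 85.2 to 135. *BIRC3* rose from 3.80 to 5.20 and *HTRA2* from 15.1 to 21.8. *BIRC5* (survivin) fell from 69.2 to 50.7, and *DIABLO* fell from 49.1 to 29.6. Around *CMPK2*, *SAMHD1*, a dNTP hydrolase, rose from 11.9 to 40.7, and *NME4*, a mitochondrial nucleoside diphosphate kinase, fell from 96.6 to 50.01. In the DNA sensing pathway of *IFI16*, *CGAS* fell from 7.57 to 5.50 (limma adjusted p = 0.0458), *TBK1* rose from 63.0 to 81.6 and *STING1*, named after its values were seen, had means of 0.974 and 0.217 and was under the minimum. The *CGAS* call was lost with edgeR, with no filter and without any one library other than scrambled siRNA replicate 2. The number that rose was 7 without *DUSP6* siRNA replicate 2 and 7 without replicate 3, and the number that fell was 7 without scrambled siRNA replicate 2 and 3 without any other single library.

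*IFI30* was set beside 14 lysosomal genes, of which 13 were tested. They were also listed with earlier results known, and their counts are a description. In limma 7 of them rose, against 19.7% of all genes tested, and 0 fell, against 24.7%. The count that fell was also 0 at an unadjusted limma p under 0.05, and edgeR and DESeq2 called 0 lower as well. *LGMN*, the protease legumain, rose from 31.8 to 61.1 (log2 fold change 0.93), *CTSL*, cathepsin L, from 10.3 to 17.7 (0.77) and *GAA*, acid alpha-glucosidase, from 69.0 to 105 (0.60). *IFI30* was lower, as were the means of *NPC2* (from 43.7 to 37.3) and *CTSB* (from 99.2 to 88.8), which were not called and were named after their values were seen. Without *DUSP6* siRNA replicate 2 the number that rose was 2.

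The genes whose profile over the 6 libraries was most like the mean of the members' log2(value + 1) were *SAMD9*, *TAP1*, *OAS3*, *UNC93B1* and *OAS1*, with Pearson r from 0.9992 to 0.9995. This is a description over 6 libraries in 2 groups, so any gene with a large difference between the groups scores high, and 96 of the 12855 genes compared exceeded 0.99. The nearest single gene was *ZNF333* for *IFI6*, *CLHC1* for *IFI27*, *SAMD9* for *IFI44*, *DSEL* for *IFI44L* and *TRIM56* for *CMPK2*. It was *CFB* for *XAF1*, *ADM* for *IFI35*, *TNFRSF12A* for *IFI16*, *PTPN14* for *EPSTI1* and *SNORA73B* for *IFI30*, with r from 0.988 for *EPSTI1* to 0.9997 for *CMPK2* over the 10 members.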

How the data were processed

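Reads from 6 libraries of MDA-MB-453 cells were aligned by the authors to hg38 with Rsubread and assigned to RefSeq gene models with default settings, which take no strand. The deposited table holds 1 normalized signal value per gene and library. Every value was a whole multiple of 1 step per library (100% within 0.01 reads), and the reads so recovered, scaled by edgeR's TMM method, gave back the deposited values. Rows without a symbol (349) held at most 0.0798% of the reads. A minimum mean of 1 over the libraries left 12862 genes, for which limma 3.58.1 (R 4.3.3; lmFit, eBayes with trend) was run on log2(value + 1), with Benjamini-Hochberg adjustment over all of them and genes were called at an adjusted p under 0.05. The quasi-likelihood test of edgeR 4.0.16, run on these reads, called 2771 genes higher and 2969 lower, and DESeq2 1.42.0 was a further alternative. These fits were tested on simulated data. The SE of a member is that of the difference of the 2 group means.

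The members and gene lists were chosen with earlier results of these data known. Named were all members and *DUSP6*, every interferon ligand and transcription factor with a value above 0, up to 2 genes of each other pathway role and up to 3 called lysosomal genes by size of change, partners and paralogs that were tested, *RSAD2* and *LINC02574* as genomic neighbors, and the genes most like the members by profile. A gene that this rule names is not reported here. Names outside this rule are marked as chosen after their values were seen. Promoters came from RefSeq on GRCh38.p14, which held 10 of 10 members, and exon overlaps from GENCODE v44. Same-numbered libraries did not deviate together (r = 0.005, 0.0868 and −0.0764), so the numbers were not taken as pairs. A comparison of member protein sequences was planned and was not run.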

Additional observations from a re-analysis of the deposited data

How the results depend on the processing

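Of 120 member fold changes under 12 alternatives, 96 moved by less than 1 SD between libraries and 24 by more, all of these with the added value of 0.1 or a count test, and 0 changed direction. The replicate block leaves a fold change as it is, and leaving out 1 library of 3 in a group cannot move it by 1 SD. These alternatives could not have counted as moved or reversed, so nothing is read from them here. The median of the members was 5.79 with an added value of 0.1, 6.44 with edgeR and 6.52 with DESeq2, and ran from 3.33 to 3.88 with 1 library left out. *DUSP6* stayed lower and past the threshold throughout, from −2.22 to −1.76 with 1 library left out. Genes called higher numbered 1639 at a minimum mean of 10, and 1574 (without *DUSP6* siRNA replicate 2) to 3183 with 1 library left out. Interferon pathway genes called lower numbered 0 under quantile normalization, the replicate block, edgeR and DESeq2 (at an unadjusted p under 0.05, 0, 1, 1 and 1), and 0 to 1 with 1 library left out. With 1 library left out, partners and paralogs called higher ran from 7 to 11 and lower from 3 to 7, and lysosomal genes called higher from 2 to 8. With a mismatch allowed, 9 members held the ISRE core. The labels do not say whether the replicate numbers mark a shared origin, and these correlations cannot settle it. Of the same-numbered pairs only that numbered 2 was each other's best match. Scrambled siRNA replicate 1 and *DUSP6* siRNA replicate 3 were also each other's best match (r = 0.132). The same held for scrambled siRNA replicate 3 and *DUSP6* siRNA replicate 1 (r = 0.0648). With the replicate block 2495 genes were called higher and 3096 lower. Members with few reads (*IFI35*, *IFI16*, *EPSTI1* and *XAF1* with scrambled siRNA) are limited by depth.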
